A study of Homo sapiens with 12 samples.

Results

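The liver supplies most of the carrier and acute-phase proteins of plasma, and the mRNAs of 10 of them are described here: ALB, AFP, TF, TTR, AHSG, RBP4, HP, ORM1, SERPINA1 and AMBP. They were taken by symbol, after the Ensembl identifiers of the count files had been matched to gene names, and all 10 were found among the 57773 identifiers. All 10 also passed the filter on low counts that left 22984 genes for testing. The 12 RNA-seq libraries came from HuH-7, an established human hepatoma line, in 4 groups of 3. K120/182R RIP and K120/182R input came from cells stably expressing V5-tagged HuR with arginines in place of 2 lysines that can carry SUMO, a small ubiquitin-like protein. WT RIP and WT input came from cells stably overexpressing wild-type HuR. RIP libraries hold RNA recovered with the V5 tag, and input libraries hold RNA of the cells before that step. The column headers of all 12 files also name DMSO, a common vehicle, which the sample labels do not mention, so both lines share it as far as the headers go.

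HuR, the protein encoded by ELAVL1, binds stretches rich in A and U, or in U alone, in the 3′ untranslated regions (3′ UTRs) of mRNAs and is known to change how long they last. Hepatocytes make most plasma proteins and secrete them through the endoplasmic reticulum. In an acute-phase response, driven in the liver mainly by interleukin-6 and STAT3, the positive acute-phase proteins haptoglobin (HP), orosomucoid (ORM1) and alpha-1 antitrypsin (SERPINA1) rise in plasma. The negative ones, among them albumin (ALB), transferrin (TF), transthyretin (TTR), retinol-binding protein (RBP4) and fetuin-A (AHSG), fall. Alpha-fetoprotein (AFP) is the fetal relative of albumin and is often made again by hepatoma cells, and AMBP encodes a precursor of alpha-1-microglobulin and the protease inhibitor bikunin.

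The AU-rich core ATTTA, written as DNA and searched on the mRNA strand, occurred in the annotated 3′ UTR of 4 of the 10 genes. The windows below are shown because they are the places outside TF where these 3′ UTRs carry that motif, which is in capitals. Other parts of the mRNAs, and other transcripts of these genes, were not searched. A match describes the sequence and is not a shown binding site. Each runs 5′ to 3′ on the mRNA strand, from the GENCODE transcript on GRCh37 (hg19), and was identical to the genome sequence. The ALB window is shorter because it begins at the first base of the 3′ UTR.
ALB, chr4:74286016-74286036, plus strand: catcacATTTAaaagcatctc
AFP, chr4:74321399-74321423, plus strand: attttaactgATTTAacactttttg
AFP, chr4:74321504-74321528, plus strand: aagtttgcttATTTAtgaaaagtta
AFP, chr4:74321621-74321645, plus strand: ccaaggatggATTTAcagcactaga
AFP, chr4:74321786-74321810, plus strand: atctaagaaaATTTAacatctactt
RBP4, chr10:95351758-95351782, minus strand: cttcagctctATTTAtcttaggagt
ATTTA was present in 71.0% of the 3′ UTRs of 13900 tested coding genes. AFP held 4 copies in 554 bases, where 56.1% of the 1269 3′ UTRs within 20% of that length held any. ALB held 1 in 414 bases (45.9% of 1104 such UTRs held any), and RBP4 held 1 in 381 bases (43.0% of 1124). Its longer form TATTTAT, which contains ATTTA, occurred once each in AFP, RBP4 and TF (for AFP at the second window), and in 34.4% of all these 3′ UTRs. Of 3′ UTRs of similar length, 16.15% held it for AFP, 10.6% for RBP4 and 96.3% for TF. TF held 35 copies of ATTTA, but its annotated 3′ UTR runs to 18021 bases, and all 27 3′ UTRs of similar length held the motif. No copy of ATTTA was found in TTR, AHSG, HP, ORM1, AMBP or SERPINA1. For TTR, AHSG, HP, ORM1 and AMBP, 18.7% to 42.8% of 3′ UTRs of similar length held any. For SERPINA1 the search covered 1702 bases, where 87.1% of 1885 3′ UTRs of similar length held at least 1. A run of 7 T occurred in AFP and TF alone among the 10, and in 49.3% of all these 3′ UTRs. Of 3′ UTRs of similar length, 21.9% held such a run for AFP, 100% for TF and 61.6% for SERPINA1. For ALB, TTR, AHSG, RBP4, HP, ORM1 and AMBP the shares were 7.18% to 17.1%.

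Libraries held between 31774994 and 73149117 gene-level counts. Levels are given as CPM, which are counts scaled to a library of 1000000 after a correction (TMM, a trimmed mean) that sets the typical gene equal between libraries. The labels give a starting amount of 16 to 77 ng of RNA for RIP and 250 ng for input, so an effect of the amount cannot be told apart from precipitation, and no mock precipitation is used here. Each HuR form is represented by 1 line, so other differences between the lines cannot be told apart from the HuR form, and the labels do not say whether it is a clone or whether replicates were separate cultures. Every p-value therefore rests on the spread among libraries of a group, and that spread may be technical. All 8 hepatocyte markers outside the set were tested, and they summed to 754 to 921 CPM in K120/182R RIP, 939 to 1202 CPM in WT RIP, 2090 to 2588 CPM in K120/182R input and 2358 to 2553 CPM in WT input. Fibroblast and stellate markers, of which 2 of 5 were tested, summed to 1.21 to 3.19 CPM over the 12 libraries, and endothelial markers, of which none was tested, to at most 0.127 CPM.

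AFP was the most abundant of the 10 mRNAs in every group, and HP and AHSG were the least abundant. In K120/182R RIP, AFP ranked 17th of 14017 tested coding genes by mean CPM, against the 3rd place in WT RIP. It ranked 4th in K120/182R input and was 3rd in WT input. On a scale that allows comparison between genes, CPM per kilobase of annotated exons, the level of AFP averaged 837 ± 58.3 in K120/182R RIP, 1413 ± 73.6 in WT RIP, 1602 ± 205 in K120/182R input and 2604 ± 342 in WT input (SD, n = 3 each). RBP4 came next in K120/182R RIP (103), WT RIP (131) and K120/182R input (318), and AMBP in WT input (302). On this scale RBP4 overlapped AMBP, and AMBP overlapped ALB, in K120/182R input. In WT input RBP4 overlapped ALB and TTR overlapped ORM1. In K120/182R RIP TTR overlapped AMBP and ORM1 overlapped SERPINA1. All these neighbours were thus not ordered beyond their spread. HP was the lowest on this scale, at 0.705 in K120/182R RIP, 0.634 in WT RIP, 1.82 in K120/182R input and 1.34 in WT input, with AHSG just above it. TF took the 8th place in each group, because its annotated exons span 26038 bases. Per kilobase of coding length, a measure added after seeing the data, TF stood between the 5th and 7th place, AFP stayed first, and AHSG and HP stayed the 2 lowest but overlapped each other except in K120/182R input. The place after AFP also depended on the length used. By the longest transcript ALB held it in K120/182R RIP (125, RBP4 114) and AMBP in K120/182R input (382.5, RBP4 352). By coding length RBP4 held it in WT input (556, AMBP 540). The libraries of each of these pairs overlapped.

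**Figure D1:**
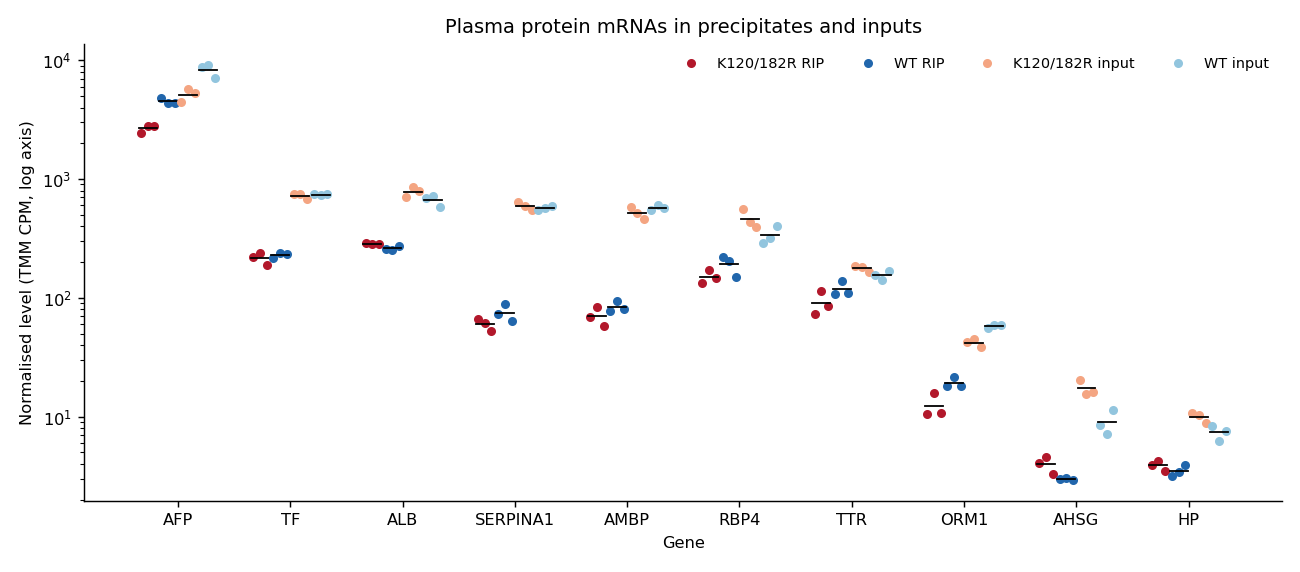
Normalised level of each gene (TMM CPM, log axis) in the 12 libraries. Points are libraries, black bars are group means (n = 3), and genes run from the highest to the lowest mean in WT input. AFP lies above all other genes in each group, and for each gene the RIP points of a line lie below its input points.

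The first question was how much of each mRNA was recovered with HuR relative to its level in the same cells. In both lines all 10 mRNAs were called lower in the precipitate (edgeR's quasi-likelihood test, p adjusted over all genes under 0.05), and every RIP library lay below every input library of its line. In K120/182R cells 28% of all tested genes were called lower and 30.3% had libraries that separated downward. In WT cells these shares were 25.4% and 28.8%. The median log2 fold change of the 10 genes was −1.69 in K120/182R cells and −1.46 in WT cells, beside −0.11 and −0.13 for tested coding genes. SERPINA1 and AMBP were at the far end: in K120/182R cells 0.243% and 0.499% of coding genes had a lower fold change than these 2, and in WT cells 0.207% and 0.314%. TTR was the least displaced in WT cells, with 36.8% of coding genes below it.

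ALB (ENSG00000163631, chromosome 4, 74262831 to 74287199, plus strand, with all coordinates on GRCh37), the main carrier of fatty acids and many other ligands in plasma, had 291, 285 and 281 CPM in K120/182R RIP, against 706, 853 and 798 CPM in K120/182R input. It had 260, 254 and 276 CPM in WT RIP, against 689, 715 and 581 CPM in WT input. On the TMM scale the precipitates of each line thus held far less than the inputs, without overlap, but with total library size ALB stood at −0.14 in K120/182R cells and −0.26 in WT cells and passed in neither (adjusted p = 0.485 and 0.199). Its log2 fold change was −1.46 ± 0.14 in K120/182R cells (SE of the fit; adjusted p = 2.83e-09) and −1.33 ± 0.14 in WT cells (adjusted p = 2.15e-08). AFP (ENSG00000081051, chromosome 4, 74296855 to 74321891, plus strand), next to ALB on the chromosome, had 2464, 2802 and 2772 CPM in K120/182R RIP, against 4415, 5707 and 5259 CPM in K120/182R input. Its levels were 4793, 4363 and 4410 CPM in WT RIP, against 8737, 9176 and 7098 CPM in WT input. Precipitates and inputs did not overlap within a line, while WT RIP and K120/182R input did. The log2 fold change of AFP was −0.94 ± 0.19 in K120/182R cells (adjusted p = 0.000173) and −0.88 ± 0.19 in WT cells (adjusted p = 0.000412).

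TF (ENSG00000091513, chromosome 3, 133464884 to 133515485, plus strand), the iron carrier of plasma, had 219, 238 and 189 CPM in K120/182R RIP, against 749, 747 and 673 CPM in K120/182R input. In WT cells it had 218, 240 and 234 CPM in RIP, against 746, 731 and 742 CPM in input. The precipitates of each line again lay far below its inputs, and the log2 fold changes were −1.75 ± 0.14 in K120/182R cells (adjusted p = 1.11e-10) and −1.68 ± 0.14 in WT cells (adjusted p = 4.45e-10). Under 1% of the exon bases of TF are shared with any 1 other annotated gene, and none of the other 9 genes shares exon bases with another gene.

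TTR (ENSG00000118271, chromosome 18, 29136972 to 29178796, plus strand) and RBP4 (ENSG00000138207, chromosome 10, 95351444 to 95361501, minus strand) encode partners that carry retinol together in plasma, and TTR also carries thyroid hormone. TTR had 72.8, 114 and 85.3 CPM in K120/182R RIP, against 187, 182 and 164 CPM in K120/182R input. It had 109, 138 and 110 CPM in WT RIP, against 155, 140 and 169 CPM in WT input, where the nearest libraries of the 2 groups were almost level. The log2 fold change of TTR was −0.97 ± 0.15 in K120/182R cells (adjusted p = 4.57e-06) and −0.38 ± 0.15 in WT cells (adjusted p = 0.0357). The WT call was lost without WT RIP 1 or 3, WT input 1 or 3, or K120/182R input 2 or 3 (adjusted p of 0.0534 to 0.127). Over all settings its adjusted p ran from 0.00158, where total library size turned the sign, to 0.159. RBP4 had 133, 171 and 146 CPM in K120/182R RIP, against 554, 437 and 398 CPM in K120/182R input. It had 219, 204 and 150 CPM in WT RIP, against 291, 320 and 400 CPM in WT input. Both pairs were separate, with log2 fold changes of −1.62 ± 0.17 in K120/182R cells (adjusted p = 9.57e-09) and −0.82 ± 0.17 (adjusted p = 0.0002) in WT cells.

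AHSG (ENSG00000145192, chromosome 3, 186330849 to 186339107, plus strand), an inhibitor of mineral deposition, was scarce. It had 4.07, 4.54 and 3.26 CPM in K120/182R RIP, against 20.5, 15.6 and 16.0 CPM in K120/182R input. It had 2.98, 3.06 and 2.92 CPM in WT RIP, against 8.50, 7.18 and 11.3 CPM in WT input. These levels rest on 142 to 288 counts per precipitate library. Its log2 fold change was −2.13 ± 0.17 in K120/182R cells (adjusted p = 1.25e-10) and −1.59 ± 0.17 in WT cells (adjusted p = 3.24e-08).

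Of the positive acute-phase genes, SERPINA1 (ENSG00000197249, chromosome 14, 94843084 to 94857030, minus strand), the main plasma inhibitor of neutrophil elastase, showed the widest gap of the 10. It had 65.9, 61.2 and 52.8 CPM in K120/182R RIP, against 641, 593 and 545 CPM in K120/182R input. It had 73.1, 88.9 and 63.5 CPM in WT RIP, against 551, 576 and 590 CPM in WT input. The precipitates were 9.89-fold lower than the input in K120/182R cells (log2 −3.31 ± 0.16, adjusted p = 3.02e-14) and 7.61-fold lower in WT cells (log2 −2.93 ± 0.15, adjusted p = 4.65e-13). ORM1 (ENSG00000229314, chromosome 9, 117085378 to 117088759, plus strand), a carrier of basic drugs, had 10.6, 15.7 and 10.7 CPM in K120/182R RIP, against 42.0, 45.1 and 38.2 CPM in K120/182R input. It had 18.07, 21.54 and 17.98 CPM in WT RIP, against 55.6, 59.3 and 59.2 CPM in WT input. The groups of ORM1 were separate from each other in all 4 pairs, and its log2 fold change was −1.76 ± 0.14 in K120/182R cells (adjusted p = 1.1e-10) and −1.60 ± 0.14 in WT cells (adjusted p = 8.81e-10). HP (ENSG00000257017, chromosome 16, 72088404 to 72094954, plus strand), which binds free hemoglobin, had 3.91, 4.21 and 3.49 CPM in K120/182R RIP, against 10.7, 10.4 and 8.88 CPM in K120/182R input. It had 3.13, 3.44 and 3.87 CPM in WT RIP, against 8.27, 6.26 and 7.59 CPM in WT input. Its log2 fold change was −1.36 ± 0.16 in K120/182R cells (adjusted p = 5.92e-08) and −1.08 ± 0.16 in WT cells (adjusted p = 2.89e-06).

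AMBP (ENSG00000106927, chromosome 9, 116822407 to 116840608, minus strand) behaved much as SERPINA1 did. It had 69.0, 83.0 and 57.4 CPM in K120/182R RIP, against 578, 517 and 461 CPM in K120/182R input. It had 77.0, 93.5 and 80.6 CPM in WT RIP, against 550, 602 and 565 CPM in WT input. The precipitates were 7.43-fold lower in K120/182R cells (log2 −2.89 ± 0.16, adjusted p = 2.13e-13) and 6.83-fold lower in WT cells (log2 −2.77 ± 0.16, adjusted p = 1.16e-12).

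**Figure D2:**
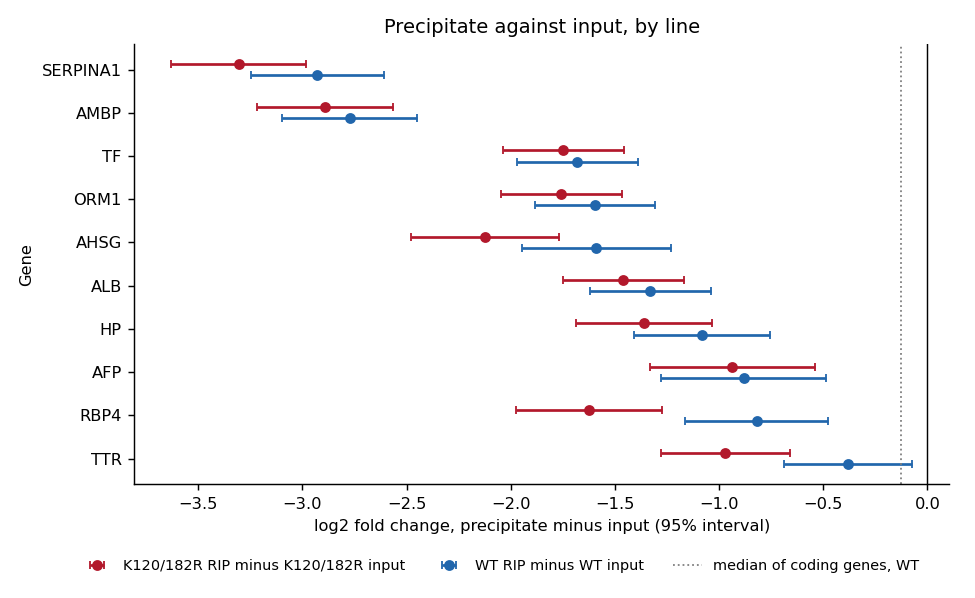
Log2 fold change of each gene between precipitate and input, in K120/182R cells (red) and WT cells (blue), with 95% intervals from edgeR's quasi-likelihood fit. The dotted line is the median of tested coding genes in WT cells. All 20 estimates lie below 0, from −3.31 for SERPINA1 in K120/182R cells to −0.38 for TTR in WT cells.

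These fold changes are relative to the typical gene. Scaled by the total library size instead, the median of all genes moved to 1.38 in K120/182R cells and 1.12 in WT cells. Of the 10 mRNAs, 5 (TF, AHSG, ORM1, SERPINA1 and AMBP) were still called lower in both. Of all 22984 genes, 922 were then called lower and 16795 higher in K120/182R cells, and 879 and 15761 in WT cells. With that scaling, in K120/182R cells AFP turned to 0.37 and TTR to 0.32, while ALB (−0.14), HP (−0.05) and RBP4 (−0.33) did not pass the test. In WT cells AFP turned to 0.19, RBP4 to 0.25 and TTR to 0.66, with TTR called higher, and ALB (−0.26) and HP (−0.05) did not pass. The kinds of RNA counted differ between the libraries. Protein-coding genes held 64.4% to 71.0% of counts in K120/182R RIP and 64.3% to 73.4% in WT RIP, but 23.8% to 26.5% in K120/182R input and 28.2% to 39.2% in WT input.

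Fold changes of coding genes moved with the base composition of their transcripts. The tested coding genes with the lowest GC content (3 groups of equal size) had a median log2 fold change of 0.38 in K120/182R cells and 0.18 in WT cells, and those with the highest −0.83 and −0.67, in the same order of lines. The 10 genes are spread over that range. AFP (39.0% GC), ALB (40.8%) and TF (41.8%) are in the low group, which ends at 43.7%. TTR, HP, ORM1 and SERPINA1 (49.7% to 53.1%) are in the middle, and AHSG, RBP4 and AMBP (54.6% to 56.6%) in the high group. With the trend removed within each library, all 10 were still called lower in K120/182R cells, and 9 in WT cells. Of all 22984 genes, 5672 and 5125 were called lower, in the same order of lines. SERPINA1 then stood at −2.97 in K120/182R cells and −2.69 in WT cells, AMBP at −2.27 and −2.29, ALB at −1.86 and −1.55, and AFP at −1.39 and −1.12, in the same order of lines. TTR in WT cells, at −0.23, no longer passed (adjusted p = 0.12).

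**Figure D3:**
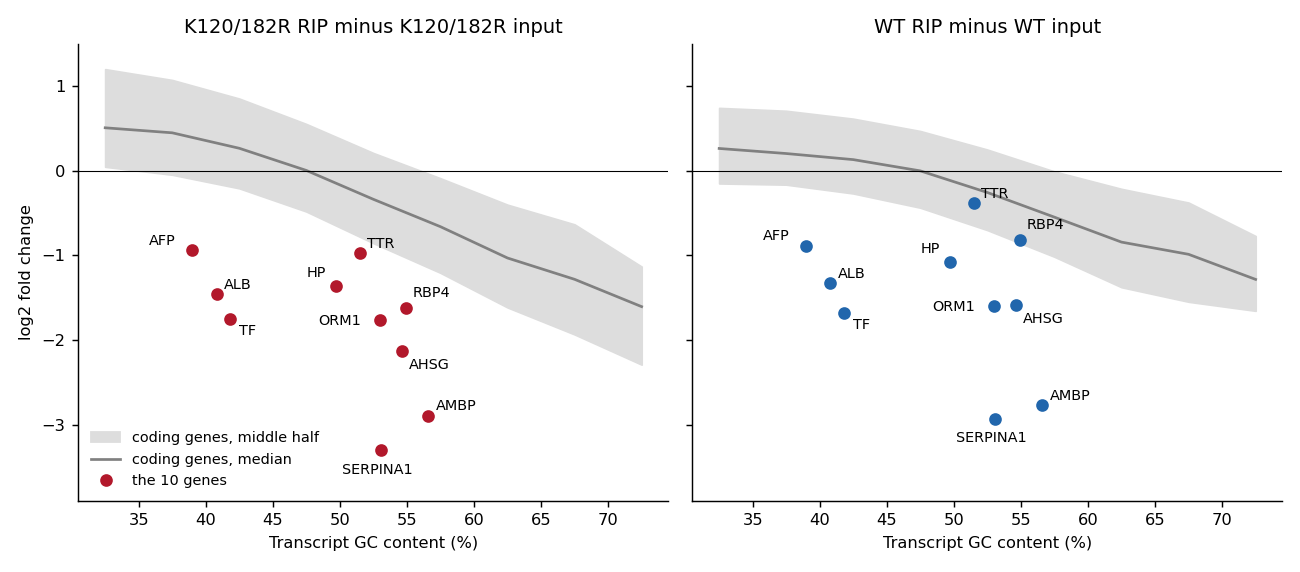
Log2 fold change between precipitate and input against the GC content of the canonical transcript (%), in K120/182R cells (left) and WT cells (right). Coloured points are the 10 genes, the grey line is the median of tested coding genes in bins 5 percentage points wide, and the band is their interquartile range. AFP, ALB and TF lie below the band in both lines, whereas TTR lies close to the line in WT cells.

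The second question was whether the mutation changed that recovery. The difference between the 2 enrichments was tested as 1 interaction term, and 0 of the 10 genes passed edgeR's quasi-likelihood test. The test called 0.0653% of all genes. At an unadjusted p under 0.05 there were 3 of the 10 (RBP4, TTR and AHSG), beside 3005 of all 22984 genes. DESeq2 called 1, RBP4, and gave no adjusted p for AHSG and HP. RBP4 had the largest estimate, −0.80 ± 0.23 (95% interval −1.29 to −0.32, adjusted p = 0.142), and it passed with DESeq2 (−0.81, adjusted p = 0.0328) and with no filter on low counts (−0.81, adjusted p = 0.0242). Over all alternatives its adjusted p ran from 0.0242 to 0.393. TTR followed at −0.59 ± 0.21 (−1.02 to −0.16, adjusted p = 0.209) and AHSG at −0.54 ± 0.24 (−1.03 to −0.04, adjusted p = 0.334). For ALB the difference was −0.13 ± 0.20, with a 95% interval from −0.53 to 0.28, and for AFP −0.05 ± 0.27, with an interval from −0.61 to 0.50. The 5 other genes ranged from −0.38 (SERPINA1, −0.80 to 0.04) to −0.07 (TF, −0.47 to 0.33). All 10 estimates were below 0, but those of ALB, AFP, TF, ORM1 and AMBP turned positive, at 0.08 to 0.19, with total library size.

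The lines were then compared directly, first in the inputs. AFP was 1.63-fold lower in K120/182R input than in WT input (log2 −0.70 ± 0.19, adjusted p = 0.0122), with all 3 mutant libraries below all 3 WT libraries. In bulk RNA, fewer cells that make AFP and less AFP mRNA in each cell cannot be told apart. ORM1 was also lower, by log2 −0.47 ± 0.14 (adjusted p = 0.017), and without overlap. AHSG was higher, by 0.95 ± 0.17 or 1.93-fold (adjusted p = 0.000276), again without overlap. Thus 1 of the 10 was called higher and 2 lower, beside 7.47% and 10% of all genes. Libraries separated upward for AHSG and HP, as they did for 15.6% of genes, and downward for AFP and ORM1, as for 18.1%. HP (0.43 ± 0.15, adjusted p = 0.0538) and RBP4 (0.46 ± 0.17, adjusted p = 0.0564) did not pass. Both passed with DESeq2 size factors (adjusted p = 0.0385 and 0.0438), TMM from protein-coding genes (0.0295 and 0.0379) and DESeq2 (0.023 and 0.0289), and over all alternatives the adjusted p ran from 0.023 to 0.956 for HP and from 0.0206 to 0.921 for RBP4. ALB stood at 0.25 ± 0.14, TTR at 0.20 ± 0.15, SERPINA1 at 0.05 ± 0.14, TF at −0.03 ± 0.14 and AMBP at −0.14 ± 0.15, all with an adjusted p of 0.239 or more. ALB passed with DESeq2 (0.28, adjusted p = 0.0404) and after GC correction (0.43, adjusted p = 0.00851).

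Single libraries and the scaling bear on these calls. AFP had an adjusted p of 0.0575 without WT input 1, 0.0507 without WT input 2 and 0.0545 without K120/182R input 1, with log2 values from −0.65 to −0.60, and it ranged up to 0.0575 over all alternatives. ORM1 had 0.0546 without WT input 2 (−0.46) and 0.0785 without K120/182R input 3 (−0.41). Without WT input 2, AHSG was thus the 1 gene of the 10 that passed. RBP4 passed in 6 of the 12 fits that left out 1 library, with 0.0250 without WT input 3 as the lowest adjusted p and 0.31 to 0.60 as the range of its log2 change. With total library size the median of all genes moved to −0.43 between the inputs, AFP stood at −1.14, ORM1 at −0.91 and AHSG at 0.51, and AHSG no longer passed (adjusted p = 0.0736). TF (−0.47, adjusted p = 0.0453) and AMBP (−0.57, adjusted p = 0.0149) were then called lower by edgeR's test. With this scaling 4 of the 10 were thus lower and 0 higher, beside 6822 and 386 of all genes. Of 3 tested cholangiocyte markers 1 also differed between the inputs: KRT19 averaged 3.21 CPM in K120/182R input and 1.08 CPM in WT input (log2 1.58, adjusted p = 0.000452). The list as a whole summed to 62.1 to 64.7 CPM in K120/182R input and 58.2 to 68.0 CPM in WT input, with KRT7 at 0 in both, and its part in the AHSG result was not tested. Immune markers, of which 4 of 5 were tested, summed to 12.4 to 13.7 CPM in K120/182R input and at most 10.6 CPM in WT input, without overlap. The log2 changes of the 4 ran from 0.15 to 0.53, and 0 of them were called. CD68 among them shares 81.6% of its exon bases with a noncoding gene on the same strand, so its value is uncertain. The part of these markers in the AFP, ORM1 and AHSG results was not tested.

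Between the precipitates, AFP (log2 −0.76 ± 0.19, adjusted p = 0.00631) and ORM1 (−0.64 ± 0.14, adjusted p = 0.00195) were again lower in the mutant line, and 0 of the 10 were called higher. The shares of all genes were 9.76% lower and 9.87% higher. Both had separate libraries, as 17.5% of genes did downward, and ALB and AHSG separated upward, as 18.1% did, without passing the test (ALB 0.12 ± 0.14, adjusted p = 0.615; AHSG 0.41 ± 0.17, adjusted p = 0.102). TTR (−0.39 ± 0.15, adjusted p = 0.0654), RBP4 (−0.35 ± 0.17, adjusted p = 0.152) and SERPINA1 (−0.33 ± 0.14, adjusted p = 0.119) stood below 0 and did not pass. The same holds for AMBP (−0.26) and TF (−0.10), and HP stood at 0.15. TTR passed without K120/182R RIP 2 (−0.59, adjusted p = 0.0107), the mutant precipitate in which its level was highest, and without K120/182R input 1 (−0.42, adjusted p = 0.0343). It also passed with no filter on low counts (−0.41, adjusted p = 0.0291). After GC correction AHSG was called higher (0.44, adjusted p = 0.0225) and TTR lower (−0.36, adjusted p = 0.0324), and with total library size TTR (−0.58, adjusted p = 0.0274) and RBP4 (−0.54, adjusted p = 0.0379) were called lower. Over all alternatives the adjusted p ran from 0.02 to 0.584 for AHSG and from 0.0107 to 0.272 for TTR. For RBP4 it ran from 0.0379 to 0.446, and for SERPINA1 from 0.0498, just under the threshold, to 0.42. Hepatocyte markers outside the set were also lower in sum in K120/182R RIP than in WT RIP, without overlap, with 3 of 8 called lower (FGB, HNF4A and APOB) and 1 higher. Immune markers summed to 8.79 to 11.5 CPM in K120/182R RIP and 7.51 to 8.57 CPM in WT RIP, also without overlap, with PTPRC at 0 in K120/182R RIP. Of the 4 tested, 1 was called higher and 0 lower. The part of either list in the AFP and ORM1 results was not tested.

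**Figure D4:**
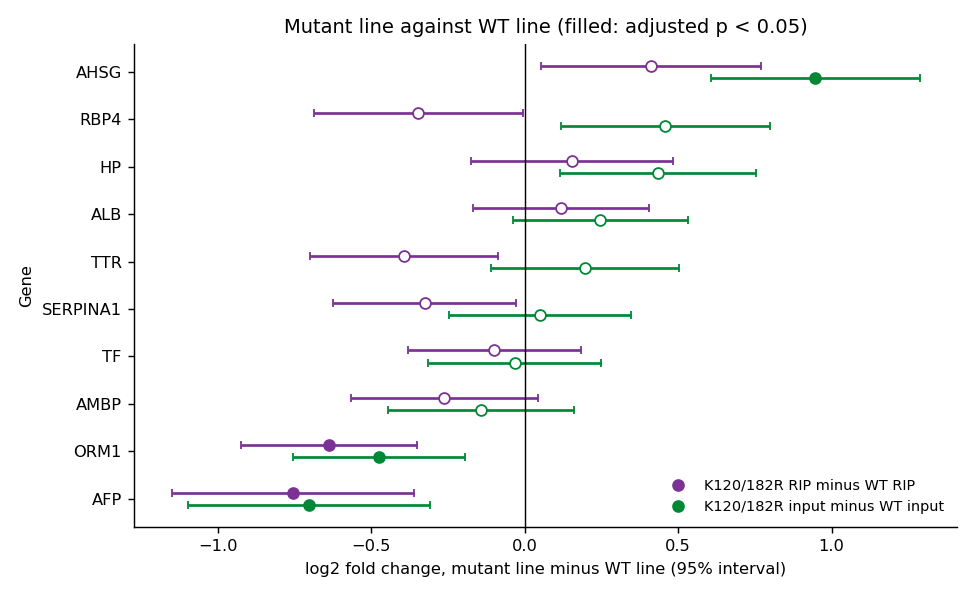
Log2 fold change of the mutant line over the WT line for each gene, between precipitates (purple) and between inputs (green), with 95% intervals. Filled points passed an adjusted p of 0.05. AFP and ORM1 are filled and below 0 in both, and AHSG is filled and above 0 in the inputs.

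ELAVL1 mRNA itself averaged 27.2 CPM in K120/182R RIP, 34.5 in WT RIP, 48.4 in K120/182R input and 58.2 in WT input. The log2 difference between the lines was −0.34 ± 0.12 between precipitates (adjusted p = 0.0561) and −0.27 ± 0.12 between inputs (adjusted p = 0.14), and neither passed. Counts are per gene, so endogenous and tagged ELAVL1 cannot be told apart.

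The ratio of AFP to ALB counts needs no scaling between libraries, and it separated all 4 groups. It was 8.47, 9.85 and 9.85 in K120/182R RIP, against 18.4, 17.2 and 16.0 in WT RIP. In the inputs it was 6.26, 6.69 and 6.59 in K120/182R cells, against 12.7, 12.8 and 12.2 in WT cells. The ratio was thus 1.83-fold lower in K120/182R precipitates than in WT precipitates (log2 difference −0.88) and 1.93-fold lower in K120/182R inputs than in WT inputs (−0.95). In each line the precipitate had a higher ratio than the input, by 0.52 in K120/182R cells and 0.45 in WT cells on the log2 scale. Each of these comparisons gave p = 0.1 in a two-sided exact permutation test, the smallest value that 3 against 3 libraries allow (0.24 after Benjamini-Hochberg adjustment over 12 ratio tests).

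AFP made up most of the counts of the set: 73.9% to 77.0% in K120/182R RIP, 80.7% to 83.0% in WT RIP, 55.9% to 62.9% in K120/182R input and 69.4% to 74.4% in WT input. The 10 genes together held 0.494% to 0.522% of all gene counts in K120/182R RIP and 0.774% to 1.03% in WT RIP. The shares were 0.474% to 0.497% in K120/182R input and 0.772% to 1.07% in WT input, so precipitates and inputs of a line had nearly equal shares of the whole library. Among protein-coding counts alone the shares were 0.736% to 0.772% in K120/182R RIP, 1.20% to 1.40% in WT RIP, 1.79% to 2.01% in K120/182R input and 2.37% to 2.74% in WT input, and precipitates lay below inputs. With AFP left out of both parts of that share, the other 9 genes held 0.178% to 0.201% in K120/182R RIP, 0.216% to 0.240% in WT RIP, 0.736% to 0.799% in K120/182R input and 0.716% to 0.737% in WT input. On this last measure the inputs of the 2 lines overlapped slightly and K120/182R input had the higher mean, whereas with AFP included it lay below WT input without overlap.

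**Figure D5:**
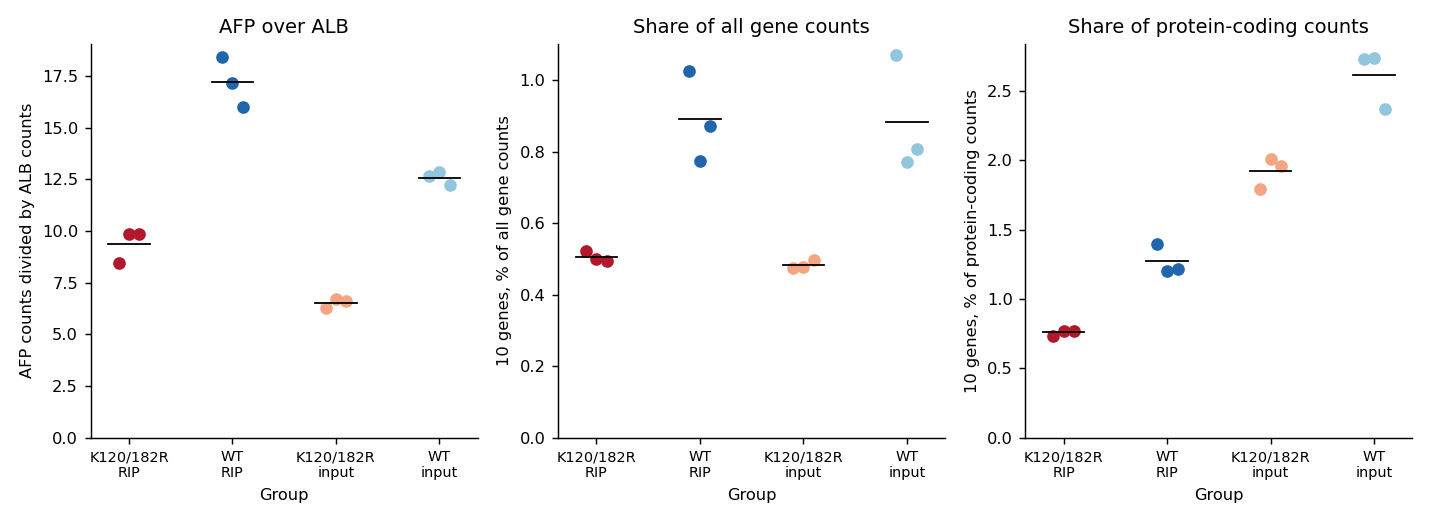
AFP counts divided by ALB counts (left), and the share of the 10 genes in all gene counts (middle, %) and in protein-coding counts (right, %), for each library (points) and group mean (bars, n = 3). The ratio separates the 4 groups, K120/182R lies below WT in each kind of library, and precipitates lie below inputs in the coding share only.

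Close relatives could share reads. ORM1 and ORM2 transcripts were identical at 95.9% of 759 aligned bases, and HP and its relative HPR at 96.1% of 1124, so the separate values of ORM1 and HP are uncertain. ORM2 stood at −1.85 ± 0.17 in K120/182R cells and −1.51 ± 0.16 in WT cells (adjusted p = 1.16e-09 and 3.54e-08), and HPR at −1.28 ± 0.21 and −0.78 ± 0.21 (adjusted p = 1.21e-05 and 0.0032). The ratio of ORM1 to ORM2 lay between 1.52 and 2.01 in all 12 libraries, and that of HP to HPR between 1.37 and 2.23. ALB and AFP aligned over 269 bases only, at 72.1% identity.

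Other plasma proteins of the liver were counted from lists drawn up for the same roles. Of 10 tested carriers outside the set, 6 were lower and 0 higher in the precipitate of K120/182R cells, and 7 and 0 in WT cells (medians −0.73 and −1.09). With total library size these counts became 1 lower and 5 higher in K120/182R cells and 1 and 2 in WT cells. With TMM, the corticosteroid carrier SERPINA6 (−1.47 in K120/182R cells and −1.37 in WT cells), hemopexin (HPX, which binds heme, −1.38 and −1.45 in the same order), APOH (a phospholipid-binding protein, −0.80 and −0.96) and the vitamin D carrier GC (−0.89 and −2.01) were among the lower ones. With total library size APOH was called higher in K120/182R cells (0.51, adjusted p = 0.0225 in edgeR's test) and stood at 0.11 in WT cells. GC stood at 0.43 in K120/182R cells and stayed lower in WT cells (−0.97, adjusted p = 0.02). The 3 WT precipitates held only 24, 18 and 10 counts of GC. SERPINA6 (−0.17 and −0.32) and HPX (−0.07 and −0.40) then passed in neither line. Of 17 tested acute-phase genes, 14 were lower and 0 higher in K120/182R cells, and 15 and 0 in WT cells (medians −1.23 and −0.95). These became 3 and 4, and 4 and 0, with total library size, beside 922 and 16795, and 879 and 15761, of all 22984 genes. With TMM, complement C3 stood at −2.28 in K120/182R cells and −2.07 in WT cells, angiotensinogen (AGT) at −2.16 and −1.75, and ITIH2, which carries the bikunin made from AMBP, at −1.14 and −1.26. With total library size C3 (−0.96 and −1.025) and AGT (−0.85 and −0.69) stayed lower, while ITIH2 (0.17 and −0.21) passed in neither line.

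Between the inputs, 2 of 10 carriers were higher and 2 lower, and 2 of 17 acute-phase genes were higher and 5 lower, beside 7.47% of all genes higher and 10% lower. With total library size 11 of the 17 acute-phase genes were called lower and 1 higher, and of the carriers 3 were lower and 0 higher. Of all 22984 genes, 6822 were then lower and 386 higher. Thyroxine-binding globulin (SERPINA7) had 0.298, 0.624 and 0.397 CPM in K120/182R input, against 3.04, 3.01 and 2.53 CPM in WT input, and its log2 change was −2.68 ± 0.37 (adjusted p = 1.78e-05). Its K120/182R input levels rest on only 10, 24 and 15 counts. APOH stood at −0.60 ± 0.13 (adjusted p = 0.00294). Serum amyloid SAA4 had 0.238, 0.312 and 0.317 CPM in K120/182R input, against 4.46, 5.45 and 4.37 CPM in WT input (log2 −4.02 ± 0.29, adjusted p = 8.75e-10). It shares 75.6% of its exon bases with the readthrough gene SAA2-SAA4 on the same strand, so its value is uncertain. In each K120/182R input library SAA4 also lay below SERPINA7 in CPM, so it too rests on few counts there. The protease inhibitor A2M went the other way, with 10.7, 11.7 and 11.7 CPM in K120/182R input, against 1.73, 2.57 and 2.25 CPM in WT input (2.38 ± 0.20, adjusted p = 1.03e-08). SAA4, SERPINA7 and A2M kept their direction and call with total library size, at −4.44, −3.13 and 1.97.

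Receptors that take up these proteins, and factors that control their genes, were counted in the same way. Of 15 receptor and uptake genes, 9 were lower and 1 higher in the precipitate of K120/182R cells, and 7 and 1 in WT cells, which became 1 and 8, and 3 and 7, with total library size. With TMM, the lipoprotein receptor SCARB1 (−2.56 in K120/182R cells and −2.07 in WT cells), the asialoglycoprotein receptor subunits ASGR1 (−1.64 and −1.60) and ASGR2 (−1.32 and −0.98) and the transferrin receptor TFR2 (−1.67 and −1.78) were lower. With total library size SCARB1 stayed lower in both lines (−1.25 and −0.99). ASGR1 (−0.34 and −0.53) and TFR2 (−0.37 and −0.73) were then called in WT cells alone, and ASGR2 (−0.01 and 0.08) in neither line. In the inputs ASGR2 (0.67 ± 0.12) and the endocytic receptor LRP1 (0.55 ± 0.15) were the 2 called higher, beside 4 lower. With total library size 0 were higher and 4 lower. Of 23 regulators, 15 were lower and 4 higher in K120/182R cells, and 12 and 4 in WT cells. With total library size these became 0 lower and 16 higher, and 0 and 19. Of all 22984 genes, 922 were then lower and 16795 higher in K120/182R cells, and 879 and 15761 in WT cells. With TMM, the interleukin-6 receptor IL6R (−1.63 and −1.09), its kinase JAK1 (−1.54 and −1.40) and ZHX2, a repressor of AFP in mice (−1.73 and −1.01), were lower, and the bile acid receptor NR1H4 was higher (1.38 and 1.13). In the inputs 7 regulators were higher and 2 lower, with CEBPB, a transcription factor of the acute phase, at 0.76 ± 0.15, IL6R at 0.69 ± 0.15 and ZHX2 at 0.58 ± 0.15. With total library size 0 were higher and 8 lower, beside 386 higher and 6822 lower of all 22984 genes. None of these 4 lists held a gene called in the difference of enrichments by edgeR's test.

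Over the 12 libraries, the coding genes whose level followed that of ALB most closely were HSP90B1 (r = 0.994), GUCY2C (r = 0.991) and NT5E (r = 0.990). Those closest to the mean profile of the 10 genes were NID1 (r = 0.997), LRPAP1 (r = 0.996) and TMEM109 (r = 0.996). These values are Pearson correlations of log2 CPM among 9916 genes compared. They describe these libraries only, since precipitates and inputs form separate clusters that share their scaling.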

How the data were processed

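For each of the 12 libraries the authors deposited a file of raw read counts, 1 value for every Ensembl gene. The kit was TruSeq Stranded Total RNA, per the labels' protocols. The submitters' processing notes name bcl2fastq 2.20.0.422, cutadapt, STAR 2.4.0j, featureCounts 1.6.4 and hg19, with the annotation release, strand setting and treatment of multiply mapping reads not given in the sources used here. Of counts from 1 to 20, 74.1% were even, as when both mates of a fragment are counted, which was not tested.

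Identifiers were matched to GENCODE release 44 on GRCh37 (55538 of 57773 matched, and those without a match held 2.65% to 21.0% of a library). Counts entered 1 edgeR quasi-likelihood fit of all 12 libraries and 4 groups (edgeR 4.0.16, R 4.3.3, limma 3.58.1), with TMM scaling (factors 1.32 to 1.78 in precipitates, 0.526 to 0.909 in inputs), filterByExpr (minimum count 10, total 15) and 8 residual degrees of freedom. A gene was called where its p, adjusted by Benjamini and Hochberg over all 22984 genes, was under 0.05. Python 3.11.15, pandas 2.3.3, numpy 2.4.6, scipy 1.17.1, matplotlib 3.10.9, Biopython 1.88 and DESeq2 1.42.0 were also used. Replicates differed by more than sampling noise (chi-square per degree of freedom 15.0 to 229).

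The 10 genes, the lists, the tests and the alternatives were chosen with earlier results of these data known. The text names all 10 genes, up to 4 genes per list by smallest adjusted p in the WT enrichment, up to 2 by smallest adjusted p between inputs, the 3 genes most like ALB or the mean profile, and ELAVL1. Alternatives changed the scaling (size factors of DESeq2, library totals, or TMM from coding genes alone), test (DESeq2), filter, samples, GC trend, replicate block and single libraries, and halved counts, added after seeing the data. ZHX2 between inputs, KRT19, KRT7, FGB, HNF4A, APOB, ORM2 and HPR beside their relatives were named for their role or after their values were seen.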

Additional observations from a re-analysis of the deposited data

How the results depend on the processing

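With total library size, 5 of the 10 genes were called in the K120/182R enrichment and 6 in the WT enrichment (10 each with TMM). Between precipitates it called 4 (2 with TMM), and between inputs 4 (3 with TMM). Of all genes it called about 17720 in the K120/182R enrichment, 16640 in the WT enrichment and 3305 between precipitates. The difference of enrichments gave 105 of all genes (15 with TMM) and the inputs 7208 (4017). With this scaling log2 changes turned sign in the K120/182R enrichment for AFP (0.37), TTR (0.32) and ELAVL1 (0.49), and in the WT enrichment for AFP (0.19), TTR (0.66), RBP4 (0.25) and ELAVL1 (0.29). In the difference of enrichments they turned for ALB (0.12), AFP (0.19), TF (0.19), ORM1 (0.083), AMBP (0.13) and ELAVL1 (0.20). Between precipitates ALB (−0.067) and HP (−0.026) turned, and between inputs ALB (−0.19), TTR (−0.25), HP (−0.023) and SERPINA1 (−0.38). By construction this scaling shifts all genes of a comparison together.

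In the difference of enrichments, DESeq2 called 434 genes and 1 of the 10, with no adjusted p given for AHSG and HP. There, no filter called 185 and 1, TMM from protein-coding genes 25, a filter of 50 counts in 3 libraries 1 gene, and GC trend removal 58. Between inputs, where 3 of the 10 were called, 5 were called with DESeq2 size factors, TMM from protein-coding genes, the filter of 50 counts, only the groups compared, or the GC trend removed, and 6 with DESeq2. For the inputs those settings called 3930 to 4450 of all genes, and DESeq2 4495. Between precipitates 4 were called with the GC trend removed, beside 5983 of all genes. TF between inputs turned to 0.0041 with DESeq2 size factors and with DESeq2, to 0.018 with TMM from protein-coding genes and to 0.13 with the GC trend removed, while SERPINA1 turned to −0.013 there and AMBP in the difference to 0.020. TTR in the WT enrichment was the 1 call lost under DESeq2 size factors (adjusted p = 0.0524), DESeq2 (0.0529) and TMM from protein-coding genes (0.159). The causes of these changes were not tested.

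Leaving out 1 library at a time gave 0 to 75 genes in the difference of enrichments, 2796 to 5129 between precipitates (4512 with all libraries, lowest without WT RIP 1), and 2195 to 4160 between inputs (lowest without WT input 1), with 1 to 4 of the 10 called there. The difference of enrichments ran from −0.19 to 0.051 for AFP, −0.15 to 0.022 for TF, −0.26 to 0.0048 for AMBP and −0.20 to 0.0039 for ELAVL1. Between inputs TF ran from −0.053 to 0.025 and SERPINA1 from −0.0026 to 0.12.

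Replicate numbers are shared by the groups, but they were not taken to pair the libraries, because not every same-numbered correlation was over 0.1. Same-numbered deviations correlated at −0.04 to 0.42 in K120/182R cells, −0.17 to 0.30 in WT cells, 0.04 to 0.61 between precipitates and −0.52 to 0.16 between inputs, over 11144 genes. The replicate block called 23 genes in the difference of enrichments. With the GC trend removed as well, the replicate block called 260 genes there. It called 5 of the 10 in each comparison of the lines, beside 6383 of all genes between precipitates and 4746 between inputs. AMBP in the difference then stood at 0.011, TF between inputs at 0.13 and SERPINA1 at −0.014.

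In the K120/182R enrichment, 105 of 110 values of the 10 genes under other settings and all 120 under left-out libraries kept direction and call, against 99 of 110 and 114 of 120 in the WT enrichment, 91 of 100 and 116 of 120 in the difference, 100 of 110 and 118 of 120 between precipitates, and 79 of 110 and 107 of 120 between inputs. AHSG and HP rest on 142 to 288 counts per precipitate library. DESeq2 gave neither an adjusted p in the difference of enrichments, and both were counted there as not called.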
